A study of Mus musculus with 42 samples.

Results

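The genes described here are the cyclins and the cyclin-dependent kinases (Cdks) that drive the cell division cycle. They were taken by symbol from the RNA-seq count tables: Ccnd1, Ccnd2 and Ccnd3 (D type cyclins), Ccne1 and Ccne2 (E type), Ccna2 (A type), Ccnb1 and Ccnb2 (B type), Cdk1 and Cdk2. All 10 of these symbols were found among the 24466 in the tables, and all 10 passed the filter on low counts that left 14836 genes for testing. RNA was sequenced in 3 groups. The first, +Dox, held 3 libraries of iPax7 cells, myogenic precursors made from a mouse embryonic stem cell line with a doxycycline (Dox)-inducible Pax7 gene and sorted as PDGFαR+Flk-1- cells, grown with FGF and 0.75 µg/ml Dox. The second, -Dox, held 2 libraries of the same cells 3 days after Dox was removed, with FGF kept in the medium. Both iPax7 groups therefore share 1 engineered line and the same earlier Dox exposure. The third held 3 libraries of satellite cells, the resident stem cells of skeletal muscle, isolated from Pax7-ZsGreen reporter mice. Their age is not given in the sources used here, and neither is whether the libraries of a group came from separate cultures or animals, so p-values measure only the spread between these libraries, which may be technical.

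Cyclins are the regulatory partners that switch Cdks on. D type cyclins bind Cdk4 and Cdk6 in response to growth factors and start the phosphorylation of the retinoblastoma protein. E type cyclins act with Cdk2 at entry into DNA synthesis, cyclin A2 acts with Cdk2 and Cdk1 during DNA synthesis and afterwards, and B type cyclins act with Cdk1 at mitosis. The E, A and B types and Cdk1 are transcribed in a cell cycle-dependent way, largely through E2F factors and the MuvB complexes. Skeletal muscle cells leave the cell cycle as they differentiate, and most satellite cells of resting adult muscle are quiescent.

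Counts on genes per library ran from 48203901 to 54674619 in iPax7 cells and from 39010958 to 43811197 in satellite cells. Reads set aside for aligning to several places made up 7.11% to 7.6% in iPax7 cells and 23.6% to 30.7% in satellite cells. Cell source and library preparation cannot be told apart in any comparison with satellite cells. Pax7 itself had a mean of 12833 normalized counts in +Dox, 245.1 in -Dox and 5962 in satellite cells, in the direction of the labels. The myogenic factor Myf5 had means of 143916, 11580 and 122739 in the same order, and Myod1 of 200.2, 139.6 and 22962. The summed level of 4 differentiating muscle genes (Myog, Myh3, Acta1 and Ckm) was 6017 to 7190 normalized counts in +Dox, 1375562 to 1390080 in -Dox and 7760 to 13610 in satellite cells. The satellite cell libraries also held RNA of genes that mark other cells of muscle. Their summed levels were 11381 to 18324 for 4 endothelial genes, 1795 to 7751 for 4 blood genes and 41065 to 62138 for 4 fibro-adipogenic genes, against at most 165.7, 101.5 and 9745 in any iPax7 library. None of these 12 genes was at 0 in the satellite cells as a group. The fibro-adipogenic gene Ly6a did not follow the sum of its type: its mean was 5063 in +Dox, 1418 in -Dox and 2623 in satellite cells. Its +Dox and satellite libraries overlapped. The part of these other cells in the levels below was not tested. In bulk RNA, fewer cells of a type and less RNA per cell cannot be told apart.

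Promoter sequences are described here for members that fell after Dox withdrawal and for members that did not. RefSeq (GRCm38.p6) windows were found for 6 of the 10 members. Those of Ccnd1, Ccnd2, Ccne2 and Ccna2 had no entry. The 250 bases before the start site are given for the B type cyclins and both Cdks and for Ccnd3, 5′ to 3′ on the gene's strand. Capitals mark 3 motifs, searched on both strands: the CCAAT box (CCAAT), the CHR (TTTGAA), to which MuvB complexes bind, and an E2F-type site (TTTCCCGC, TTTGGCGC, TTTCGCGC or TTTGCCGC).
Ccnb1, chr13:100786487-100786736, minus strand: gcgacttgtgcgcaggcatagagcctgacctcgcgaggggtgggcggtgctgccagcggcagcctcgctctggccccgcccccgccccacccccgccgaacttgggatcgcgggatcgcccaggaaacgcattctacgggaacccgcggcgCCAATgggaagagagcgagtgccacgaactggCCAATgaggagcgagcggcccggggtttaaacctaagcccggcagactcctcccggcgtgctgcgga
Ccnb2, chr9:70421555-70421804, minus strand: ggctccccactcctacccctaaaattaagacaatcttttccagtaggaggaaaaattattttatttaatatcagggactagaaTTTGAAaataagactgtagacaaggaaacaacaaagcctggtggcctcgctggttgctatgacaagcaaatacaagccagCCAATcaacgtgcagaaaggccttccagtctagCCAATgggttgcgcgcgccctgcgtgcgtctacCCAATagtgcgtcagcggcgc
Cdk1, chr10:69352913-69353162, minus strand: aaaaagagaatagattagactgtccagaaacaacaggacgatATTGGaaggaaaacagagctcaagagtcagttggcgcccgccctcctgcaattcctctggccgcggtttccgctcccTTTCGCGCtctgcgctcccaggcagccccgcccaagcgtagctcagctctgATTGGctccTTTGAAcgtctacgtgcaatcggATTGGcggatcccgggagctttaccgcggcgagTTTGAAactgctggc
Cdk2, chr10:128705052-128705301, minus strand: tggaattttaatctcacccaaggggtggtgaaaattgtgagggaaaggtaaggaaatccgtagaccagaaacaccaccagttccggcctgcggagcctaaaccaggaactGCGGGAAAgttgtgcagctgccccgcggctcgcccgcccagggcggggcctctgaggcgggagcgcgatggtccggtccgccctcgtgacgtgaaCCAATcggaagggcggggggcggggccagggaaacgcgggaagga
Ccnd3, chr17:47593217-47593466, plus strand: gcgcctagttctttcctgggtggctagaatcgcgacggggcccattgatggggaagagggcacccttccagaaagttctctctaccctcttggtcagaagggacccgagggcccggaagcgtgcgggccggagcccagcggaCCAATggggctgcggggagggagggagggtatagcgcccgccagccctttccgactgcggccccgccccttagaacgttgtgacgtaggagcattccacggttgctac
The Ccnb2 window held 3 CCAAT boxes and 1 CHR. That of Cdk1 held 3 CCAAT boxes, all on the other strand, 2 CHRs and 1 E2F-type site, 131 bases before the start site. The Ccnb1 window held 2 CCAAT boxes and no CHR of these letters. Cdk2 had 1 E2F-type site and 1 CCAAT box. Of the 2 Ccnd3 windows, the printed one held 1 CCAAT box and the other none of the motifs, nor did that of Ccne1. Among 32851 RefSeq windows of this length, 33.8% held a CCAAT box, 16% a CHR and 1.86% an E2F-type site. A match is a description of the sequence and says nothing on binding.

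The first comparison sets iPax7 cells 3 days after Dox withdrawal against those kept in Dox. Loss of Pax7 and the differentiation seen in the same libraries cannot be told apart in it. After Dox withdrawal, 6 of the 10 members were lower and none was higher, at an adjusted p under 0.05 and at least 2-fold (quasi-likelihood test of edgeR, adjusted by Benjamini-Hochberg over 14836 genes). Log2 fold changes are given ± their standard errors. Across all tested genes, 3.01% were lower and 4.63% higher by the same rule. The 6 were both E type cyclins, cyclin A2, both B type cyclins and Cdk1. None of the 3 D type cyclins and not Cdk2 passed. In 7 members every -Dox library lay below every +Dox library, against 22.7% of tested genes. Ccnd3 and Cdk2 were above in every -Dox library, as were 22.7% of tested genes, and the libraries of Ccnd2 overlapped. Leaving out single libraries cut these calls: without any 1 of the +Dox libraries, only Ccne1 and Ccne2 were called, without -Dox replicate 1 only Ccne2, and without -Dox replicate 2 none. Without satellite replicate 1 Ccnb2 was not called, and without satellite replicate 3 Ccna2 was not. All 6 log2 fold changes stayed negative in those fits, and that of Ccna2 went from -4.01 to -4.88 without -Dox replicate 1. The main fit took its spread from all 8 libraries, satellite cells included. With only the 2 iPax7 groups fitted, the same 6 were called, with adjusted p from 0.000132 (Ccnb1) to 0.00325 (Ccna2), from edgeR.

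The D type cyclins stayed abundant. Ccnd1, the cyclin most often tied to growth factor signals (chr7:152115836-152125774 of NCBIM37, minus strand), had 11582, 10960 and 14152 normalized counts in +Dox and 8805 and 10422 in -Dox. Both -Dox libraries were below the +Dox libraries by a small margin. The log2 fold change came to -0.35 ± 0.245 (adjusted p = 0.479 from edgeR).

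Ccnd2, another D type cyclin (chr6:127075797-127101066, minus strand), had 22003, 19491 and 7252 normalized counts in +Dox and 19641 and 26291 in -Dox. Replicate 3 of +Dox was low, so the ratio of its highest to lowest library was 3.03 in that group, against a median of 1.61 over tested genes. That library also stood apart from replicates 1 and 2 in other genes. Top2a (9070 exon bases) had 23794, 23308 and 7585 normalized counts in +Dox, and Cks2 (692 exon bases) 8230, 9111 and 15128. Cdk7 (8386 exon bases) was level at 6740, 6692 and 6924. The cause was not tested, and the +Dox spreads, levels per kb and class shares below include this library. The groups overlapped, with a log2 fold change at 0.50 ± 0.461 (adjusted p = 0.619 from edgeR).

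Ccnd3, the D type cyclin known to be kept by differentiating muscle cells (chr17:47642000-47736632, plus strand), had 3532, 3890 and 5739 normalized counts in +Dox and 5961 and 7437 in -Dox. Every -Dox library was higher, the nearest by a narrow gap. The log2 fold change came to 0.61 ± 0.46 (adjusted p = 0.514 from edgeR).

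The E type cyclins fell. Ccne1 (chr7:38883003-38892553, minus strand) had 2622, 2878 and 3815 normalized counts in +Dox and 368.5 and 432 in -Dox. Its log2 fold change came to -2.96 ± 0.49 (adjusted p = 0.00604 from edgeR). Ccne2 (chr4:11118498-11131926, plus strand) had 1418, 1469 and 784 in +Dox and 112.1 and 84 in -Dox, with a log2 fold change at -3.64 ± 0.546 (adjusted p = 0.00358 from edgeR). In both genes the highest -Dox library was far below the lowest +Dox library.

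Cyclin A2 and the mitotic genes fell as well. Ccna2 (chr3:36463788-36471072, minus strand) had 772.9, 833.1 and 1021 normalized counts in +Dox and 79.03 and 29.54 in -Dox, with a log2 fold change at -4.01 ± 1.02 (adjusted p = 0.0433 from edgeR). Ccnb1 (chr13:101548605-101556525, minus strand) had 22156, 23045 and 20265 in +Dox, 2067 and 1738 in -Dox, and a log2 fold change at -3.52 ± 0.858 (adjusted p = 0.0378 from edgeR). The +Dox libraries of Ccnb1 lay closer together than those of any other member, with a coefficient of variation of 6.51%.

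Ccnb2, the other mitotic B type cyclin (chr9:70255496-70269361, minus strand), had 4122, 4307 and 8275 normalized counts in +Dox and 528.4 and 399.7 in -Dox. Its log2 fold change came to -3.58 ± 0.915 (adjusted p = 0.0443 from edgeR). Replicate 3 of +Dox was the highest library and stood apart from the other two.

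Of the kinases, Cdk1, the partner of the B type cyclins (chr10:68799383-68815686, minus strand), had 11563, 12448 and 16801 normalized counts in +Dox and 1164 and 1659 in -Dox, with a log2 fold change at -3.27 ± 0.732 (adjusted p = 0.0261 from edgeR). Cdk2, the partner of cyclins E and A (chr10:128134995-128142107, minus strand), had 2398, 2522 and 1832 in +Dox and 2690 and 3095 in -Dox. Its log2 fold change came to 0.36 ± 0.3 (adjusted p = 0.565 from edgeR), and it stayed abundant while Ccne1, Ccne2 and Ccna2 fell.

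**Figure D1:**
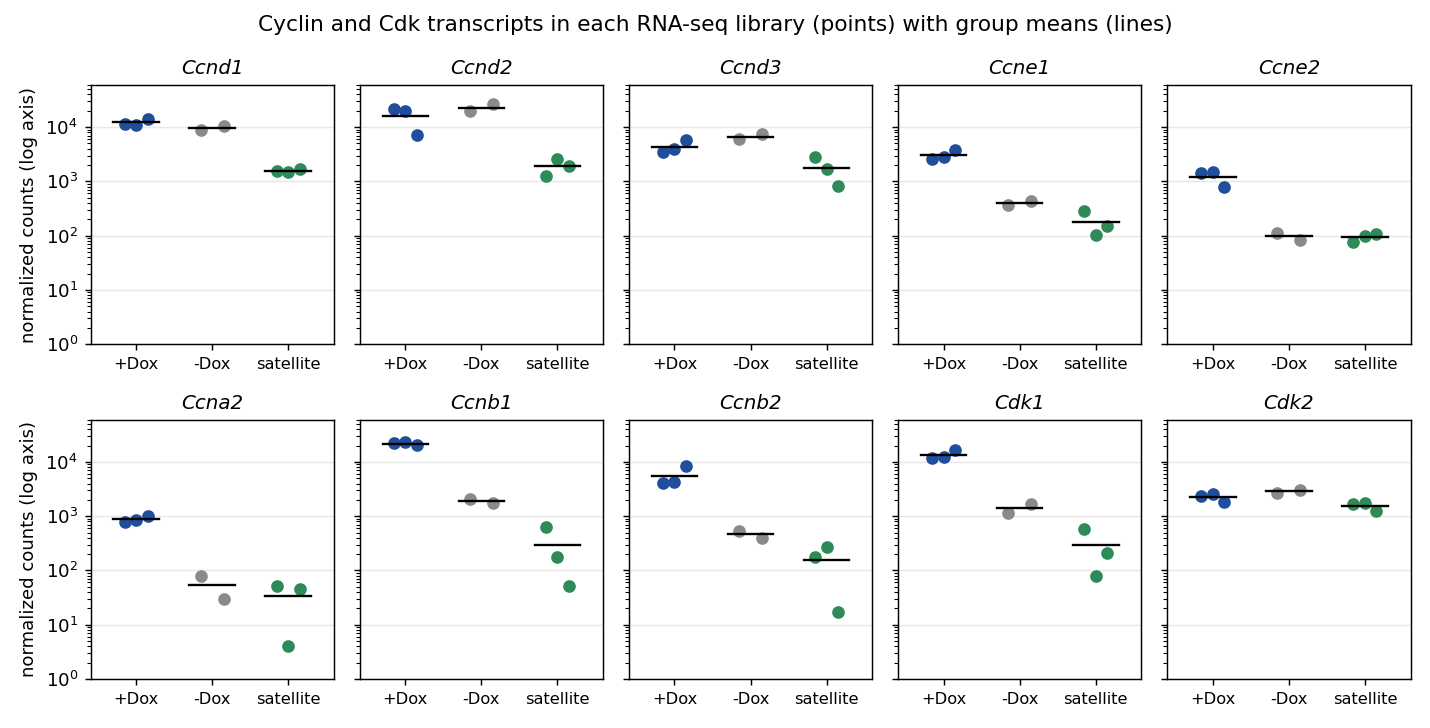
Normalized counts (log axis) of the 10 members in each of the 8 RNA-seq libraries. Points are libraries, lines are group means. Ccne1, Ccne2, Ccna2, Ccnb1, Ccnb2 and Cdk1 drop from +Dox to -Dox, Ccnb1 from a mean of 21822 to 1903, while Ccnd1 goes from 12231 to 9613.

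The second comparison sets satellite cells against the Dox-treated precursors. In satellite cells 9 of the 10 members were lower than in +Dox, Cdk2 being the exception, and none was higher. Of all tested genes, 18.2% were lower and 23.9% higher by the same rule. All 10 members were lower in every satellite library, against 26.3% of tested genes. Here the D type cyclins were lower too, and the smallest of the 9 changes was that of Ccnd3.

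Ccnd1 had 1551, 1469 and 1718 normalized counts in satellite cells, a log2 fold change against +Dox of -2.95 ± 0.234 (adjusted p = 2.64e-05 from edgeR). These 3 libraries agreed closely. Ccnd2 had 1281, 2641 and 1933 (log2 fold change -3.06 ± 0.451, adjusted p = 0.000668 from edgeR). Ccnd3 had 2857, 1674 and 823, with a log2 fold change at -1.30 ± 0.423 (adjusted p = 0.0322 from edgeR). The Ccnd3 call did not hold with the replicate number as a block (adjusted p = 0.0679) or without replicate 2 or 3 of +Dox or of satellite cells.

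The E type cyclins were low in satellite cells: Ccne1 had 279.1, 103.2 and 151.7 normalized counts (log2 fold change -4.12 ± 0.44, adjusted p = 0.000121 from edgeR). Ccne2 had 77.67, 97.85 and 106.8 (log2 fold change -3.70 ± 0.462, adjusted p = 0.000267 from edgeR). Cyclin A2 was lowest, with 52.66, 4.021 and 44.84 normalized counts from 40, 3 and 34 reads (log2 fold change -4.69, adjusted p = 0.00252 from edgeR).

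Ccnb1 had 639.8, 174.3 and 51.44 normalized counts in satellite cells, with a log2 fold change at -6.24 ± 0.826 (adjusted p = 0.000367 from edgeR), the most negative of the 10. Ccnb2 had 177.7, 266.7 and 17.15 (log2 fold change -5.18 ± 0.836, adjusted p = 0.00108 from edgeR), and Cdk1 588.5, 79.08 and 207.1 (log2 fold change -5.54 ± 0.691, adjusted p = 0.000264 from edgeR). Cdk2 had 1709, 1721 and 1232, with a log2 fold change at -0.53 ± 0.271 (adjusted p = 0.134 from edgeR). The satellite libraries varied widely in the division genes. The highest to lowest ratio was 13.1 for Ccna2, 12.4 for Ccnb1, 15.6 for Ccnb2 and 7.44 for Cdk1, against a median of 1.98 over tested genes and 1.4 for Cdk2. Replicate 2 was lowest for Ccna2 and Cdk1, and replicate 3 for Ccnb1 and Ccnb2. Without replicate 1 the log2 fold changes against +Dox were -7.59 for Ccnb1 and -6.57 for Cdk1, and without replicate 2 that of Ccnb2 was -5.83.

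Against -Dox, 5 members were lower in satellite cells and none higher: the 3 D type cyclins, Ccnb1 and Cdk1. Of tested genes, 17.2% were lower by this rule and 20.4% higher. Ccnd1 (log2 fold change -2.61, adjusted p = 9.5e-05) and Ccnd2 (-3.56, adjusted p = 0.000512, both from edgeR) passed, with Ccnd3 at -1.91 (adjusted p = 0.01). Ccnb1 was at -2.72 (adjusted p = 0.0176) and Cdk1 at -2.27 (adjusted p = 0.0196 from edgeR). Cdk2 was -0.90 with an adjusted p of 0.0389 and missed the 2-fold minimum. Ccne1 (log2 fold change -1.17, adjusted p = 0.0562), Ccna2 (-0.68, 0.557), Ccnb2 (-1.59, 0.13) and Ccne2 (-0.06, standard error 0.469, adjusted p = 0.936) did not pass. In 8 of the 10 members every satellite library lay below every -Dox library, against 30.6% of tested genes. The Ccnb1 call was lost without -Dox replicate 1 or satellite replicate 2. That of Cdk1 was lost without -Dox replicate 2 or satellite replicate 3 and when only these 2 groups were fitted (adjusted p = 0.0516 from edgeR), and that of Ccnd3 without -Dox replicate 2. Without satellite replicate 1, the log2 fold changes were -4.07 for Ccnb1 and -3.30 for Cdk1, and Ccne1 passed at -1.65 (adjusted p = 0.00788 from edgeR). The comparisons with +Dox and with -Dox share the satellite cell libraries.

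**Figure D2:**
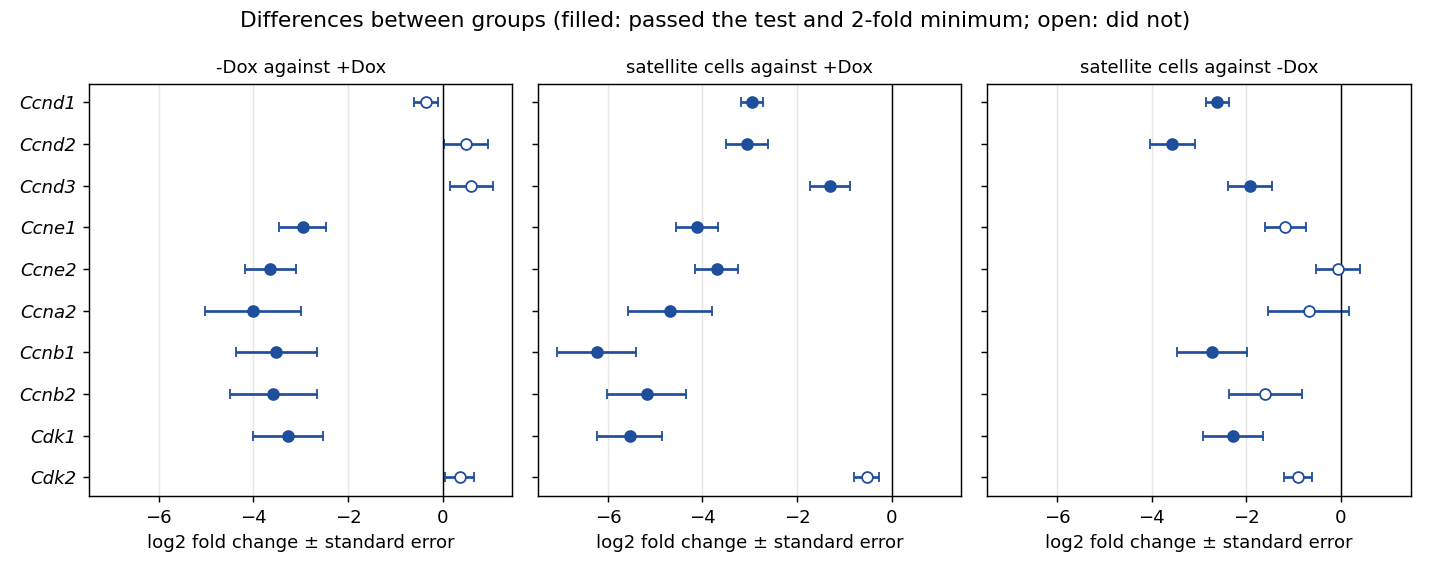
Log2 fold change of each member (horizontal axis, bars are standard errors) in the 3 comparisons, each named first group against second, with filled points for genes that changed at an adjusted p under 0.05 and at least 2-fold. The left panel has 6 filled points, all below 0 and at log2 fold changes from -4.01 to -2.96, and the middle panel has 9.

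Levels per kilobase of exon (GENCODE M1) allowed members to be compared. In +Dox the order was led by Ccnb1 (5175 ± 336.8 normalized counts per kb, SD, n = 3), Cdk1 (3949 ± 813.8) and Ccnb2 (3613 ± 1522), followed by Ccnd1, Ccnd2 and Ccnd3. Neighbours among these 6 overlapped in their libraries. In -Dox Ccnd2 (4028 ± 824.8, SD, n = 2) led, above Ccnd3 (2971 ± 463) and Ccnd1 (2507 ± 298.1), which overlapped, then Cdk2 (1189 ± 117.8), with Ccnb1 at 451.2 and Ccna2 last at 15.47. In satellite cells Ccnd3 (791.4 ± 452.9, SD, n = 3) and Cdk2 (638.9 ± 114.7) overlapped at the top, above Ccnd1 (411.9 ± 33.15) and Ccnd2 (342.3 ± 119.3). Ccnb2, Cdk1, Ccnb1 and Ccne1 followed with overlapping ranges, and Ccna2 was last in all 3 groups.

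The balance of D type against E, A and B type cyclins was described by the difference between the mean log2(normalized counts per kb + 1) of the 3 D type and of the 5 other cyclins. It was 1.33, 1.21 and 0.94 in +Dox, 4.61 and 5.37 in -Dox and 3.05, 4.17 and 4.19 in satellite cells. The 3 +Dox libraries lay below the 5 others, and on this scale -Dox and satellite cells did not overlap. The group values were 1.16 ± 0.20, 4.99 ± 0.54 and 3.80 ± 0.65 (SD; n = 3, 2 and 3). In -Dox the mean D type level was 11.59 against 11.28 in +Dox, and the E, A and B level fell from 10.12 to 6.60. In satellite cells the D type level was 8.83 and the other level 5.03. As a share of the summed cyclin level, D type cyclins made up 38.2% to 47% in +Dox, 89.1% to 92.5% in -Dox and 82.3% to 90.3% in satellite cells. No test was run on these values, since the classes were set with results of these data known. Taken as summed levels rather than mean logs, the D type was the lower class in +Dox (log2 ratio -0.40). By summed levels the log2 ratios were 3.03 and 3.62 in -Dox and 2.21, 2.49 and 3.22 in satellite cells, which overlapped.

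**Figure D3:**
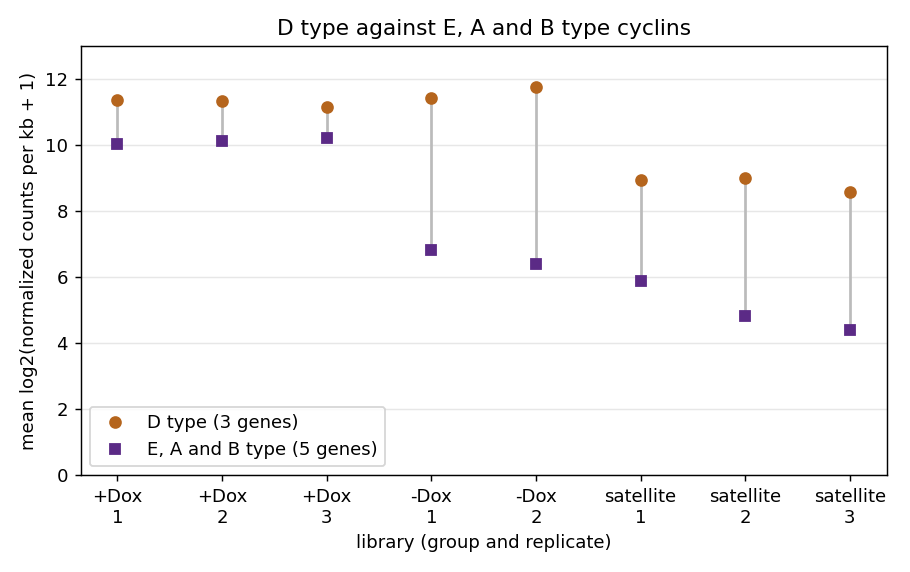
Mean log2(normalized counts per kb + 1) of the 3 D type cyclins (circles) and of the 5 E, A and B type cyclins (squares) in each library, joined by a line. The gap is 0.94 to 1.33 in +Dox and 4.61 to 5.37 in -Dox, where the circles stay at the +Dox height and the squares drop. In satellite cells both are lower.

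Composition within the D type class varied between libraries, and in the shares of Ccnd2 and Ccnd3 +Dox overlapped both other groups. Ccnd2 gave 45.7%, 42.7% and 16.9% of the summed D type level in the +Dox libraries, 41.1% and 43.4% in -Dox, and 11.8%, 29.2% and 29.4% in satellite cells. Ccnd3 gave 18.5%, 21.6% and 33.9% in +Dox, 31.5% and 31% in -Dox and 66.8%, 46.7% and 31.7% in satellite cells. The satellite libraries thus ran from mainly Ccnd3 to nearly even shares.

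The other genes of the pathway were counted from a list of 57, of which 56 were tested. After Dox withdrawal 12 were lower and 2 higher, against 3.01% and 4.63% of all tested genes, with a median log2 fold change of -0.38 against 0.00 for all tested genes. Cdk4 and Cdk6, the D cyclin kinases, were not called: Cdk4 went from 36838 to 24998 (log2 fold change -0.56, adjusted p = 0.223 from edgeR), Cdk6 from 7786 to 8366 (0.10). Of 10 cyclins with roles in transcription or elsewhere none was called. All 3 proliferation genes fell, with Mki67 at a log2 fold change of -4.18 (adjusted p = 0.00802 from edgeR). Of 16 E2f, pocket protein and MuvB genes 4 fell and 1 rose: E2f7, E2f3, Mybl2 and Foxm1 fell, and Rb1, which encodes the retinoblastoma protein, rose from 855.9 to 4291 (log2 fold change 2.33, adjusted p = 0.00144 from edgeR). The other gene that rose was Cdkn1a, the Cdk inhibitor p21, from 11098 to 43307 (log2 fold change 1.96, adjusted p = 0.00178 from edgeR), while the other 6 inhibitors were not called.

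In satellite cells against +Dox, 25 list genes were lower and 8 higher, against 18.2% and 23.9% of all tested genes, with a median of -0.97 against 0.17 for all genes. Cdk4 (log2 fold change -2.53) and Cdk6 (-2.22) were lower, as the D type cyclins were, with adjusted p of 5.08e-05 and 0.000866 from edgeR. Among the inhibitors 3 rose and 3 fell. Cdkn1b, which encodes p27, rose from 320.5 to 2593 (log2 fold change 3.02, adjusted p = 0.00154 from edgeR), and Cdkn1a and Cdkn2c rose too. Cdkn2a fell from 1090 to 0.4388 (log2 fold change -10.92, adjusted p = 1.9e-05 from edgeR). The others that fell were Cdkn2b (-4.30) and Cdkn1c (-1.11). Pcna, the sliding clamp of DNA replication, had 10190 in +Dox and 9250 in satellite cells (adjusted p = 0.669). Against -Dox, 14 list genes were lower and 11 higher, against 17.2% and 20.4% of all tested genes.

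Some members need a reservation on the counting, since strand was not stated for it. Exons shared with a gene on the opposite strand made up 21.3% of Ccnd1 (with Oraov1), 15.7% of Ccnd3 (Bysl), 17.4% of Ccne2 (Ints8) and 14.6% of Ccna2 (Exosc9). Ccnb1 had 5 near-identical copies elsewhere (at least 30% of the transcript at 90% identity) and Ccnd3 had 1. The part of overlapping genes and copies in these levels was not tested.

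The genes whose centred log2 profile over the 8 libraries lay nearest to that of Ccnd1 among 6286 candidates were Tubb5 (root mean square distance 0.147), Ap1s1 (0.219) and Hyal2 (0.22). For Ccnd2 they were 1600014C10Rik (0.372), Nid2 (0.41) and Coq3 (0.458). For Ccnd3 they were Trim35 (0.209), Pfn2 (0.281) and Atp5s (0.283). The mean profile of the 7 others lay nearest to Tyms (0.24), Prss23 (0.318) and Gmnn (0.325). These are descriptions over 8 libraries.

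Open chromatin (ATAC) and histone marks at the start sites were read from peaks called on merged replicates, 1 list per condition, so they have no replicate check. An ATAC peak lay within 1 kb of a start site for all 10 members in +Dox, at 12 h, 24 h and 3 days after Dox withdrawal and in satellite cells, against 59.2% to 66.5% of 22225 protein-coding genes. Open chromatin at the start site was thus present whether or not the transcript had fallen. Set against the median promoter peak of its own list, Ccna2 had the strongest peak of the members, 4.73 in +Dox and 6.19 after 3 days, while its transcript fell. Ccnb2 went from 1.00 to 0.70 and Ccnd2 from 1.14 to 1.88. In satellite cells Ccnd2 was at 0.32.

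**Figure D4:**
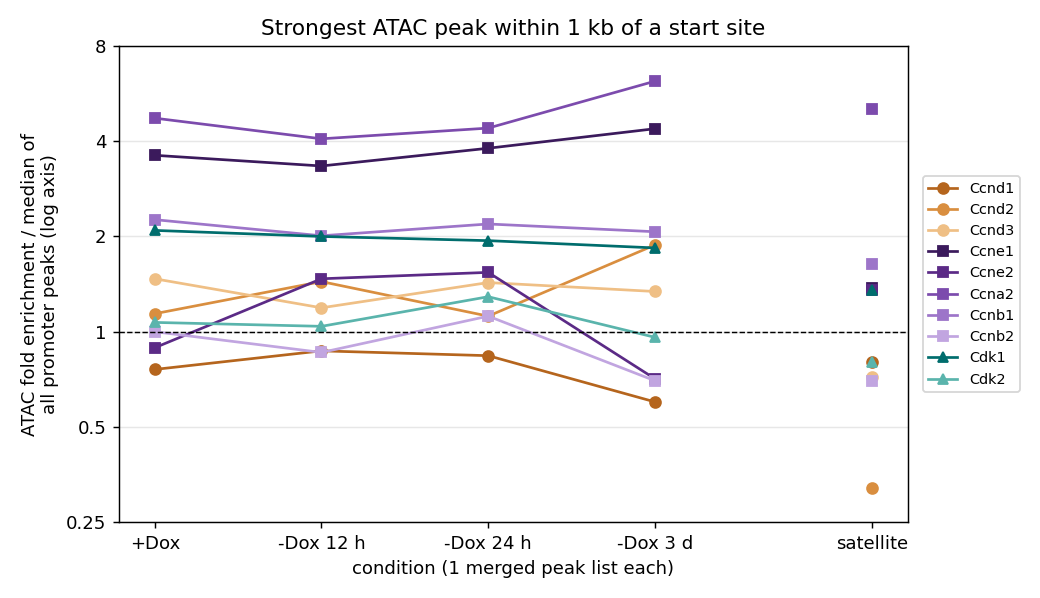
ATAC fold enrichment of the strongest peak within 1 kb of a start site of each member, divided by the median over all promoter peaks of that condition (log axis), for +Dox, 3 times after Dox withdrawal and satellite cells, with 1 merged peak list each. Ccna2 and Ccne1 stay at or above 3.34 through the iPax7 time course and Ccnd1 below 1.

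H3K27Ac, a mark of active promoters and enhancers, was found within 1 kb at 10 of 10 members in +Dox and 7 of 10 in -Dox, against 48.7% and 45.8% of all genes. The 3 without it in -Dox were Ccnb1, Ccnb2 and Ccne2. Peaks were counted near any annotated start site, and coverage only near the most upstream one. The share of bases within 1 kb of that site under a peak went from 65.6% to 14.4% at Ccna2. This share went from 79% to 14.3% at Ccne1 and from 51.6% to 18% at Cdk1. It went from 90.6% to 88.6% at Ccnd1 and from 61.4% to 76.9% at Ccnd2. At Cdk2 it went from 65.9% to 60%, and at Ccnd3 from 91.2% to 63.7%. The printed Ccnd3 window starts at 47593217 and the other, more upstream, at 47504801 (GRCm38.p6), so this coverage is not that of the printed promoter. The covered share was lower in -Dox at 9 of the 10 members, against 73.6% of the genes covered in +Dox. Coverage at 6 members, the 6 whose transcripts fell, was at least 2 times lower in -Dox, or 0. This held for 21.2% of the 10205 genes covered in +Dox, whose median went from 55.6% to 44.8%, and H3K27Ac peaks covered 73.1 Mb in +Dox and 49.2 Mb in -Dox.

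**Figure D5:**
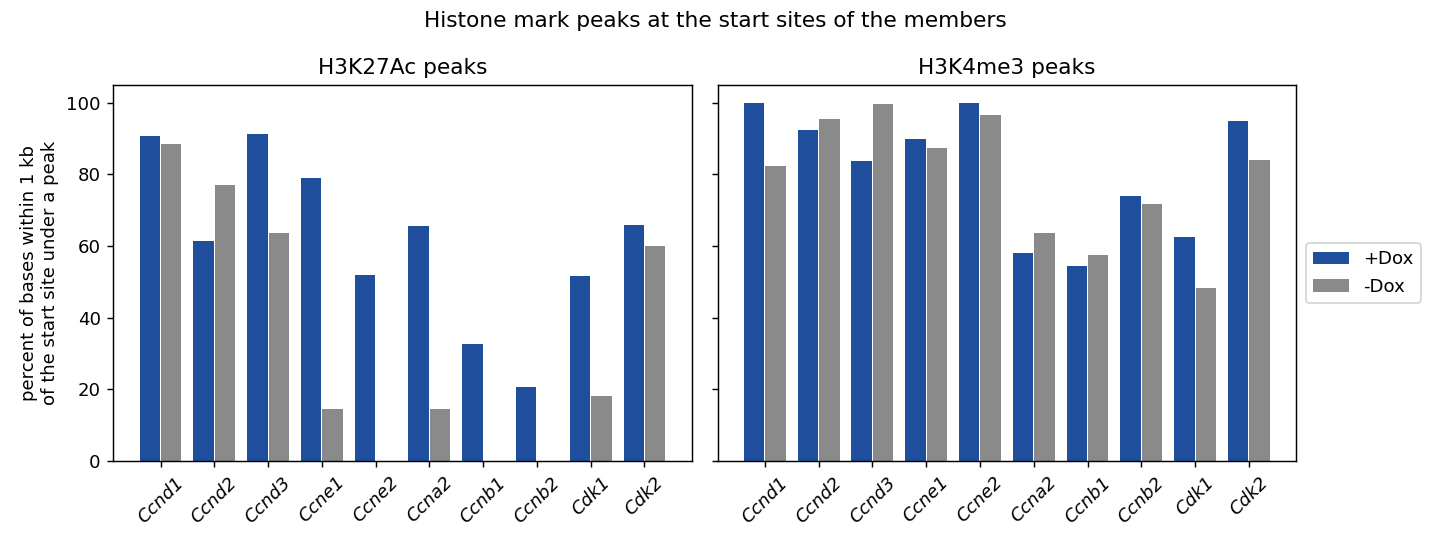
Share of bases within 1 kb of each member's most upstream start site under an H3K27Ac (left) or H3K4me3 (right) peak. Bars give +Dox and -Dox in percent from 0, with 1 merged list per bar. H3K27Ac falls to 0 at Ccne2, Ccnb1 and Ccnb2 and stays at 88.6% at Ccnd1, while H3K4me3 stays at 48.2% or above at all 10.

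H3K4me3, a promoter mark, was at all 10 members in both conditions (60.9% and 66.6% of all genes). At no member was its coverage at least 2 times lower in -Dox, against 1.24% of the 12960 genes covered in +Dox. H3K4me3 peaks covered 63.6 Mb in +Dox and 155 Mb in -Dox. H3K27me3, a mark of Polycomb repression, was at Ccnd2 alone among the 10, where it covered 78.8% in +Dox and 21.5% in -Dox. Of all genes, 22.4% had this mark in +Dox and 20.5% in -Dox. Among the 4500 genes it covered in +Dox, coverage was at least 2 times lower or 0 in -Dox at 31%, and the median went from 47.6% to 38.5%. The Pax7 list was built differently, from peaks the authors called in each replicate: a site had to recur in at least 2 +Dox replicates and to be missing from all -Dox ones. By Pax7 binding, 1 of the 10 members had a site within 1 kb, as did 1.67% of all genes. This was Ccnb2, whose site at chr9:70269168-70269545 (mm9) has its centre 5 bases from the start site. The next nearest were those of Cdk2 at 42.92 kb and Cdk1 at 79.59 kb, the farthest that of Ccne1 at 1269 kb, and the median of all genes was 399 kb.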

How the data were processed

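RNA-seq was analysed for 3 +Dox, 2 -Dox and 3 satellite cell libraries, and peak lists of 27 ChIP-seq and ATAC-seq conditions were read. The authors deposited whole-number read counts per gene symbol, without normalization. The submitters' processing notes name Trimmomatic 0.32, TopHat2 2.0, HTSeq 0.6, Bowtie2 2.2.6, MACS2 2.0.10, Picard and edgeR, and mm9. The strand setting of the counting is not given in the sources used here. For ATAC, the authors deposited peaks of merged replicates with the fold enrichment (a ratio) and the −log10 q-value of MACS2. For ChIP, the authors deposited intervals of Qeseq peaks (other values: start and end only), from merged replicates for histone marks and from single replicates for Pax7.

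Normalized counts are counts over the TMM effective library size times the geometric mean of these sizes. Genes that passed filterByExpr were tested in edgeR 4.0.16 (R 4.3.3) with 1 mean per group over all 8 libraries. Changed means an adjusted p under 0.05 and at least 2-fold, and the standard error is the log2 fold change over the square root of F. Levels across genes are per kb of exon (GENCODE M1 on NCBIM37, which is mm9). Promoter windows are from RefSeq (GRCm38.p6). Copies of the members were sought with minimap2 2.31. The alternatives were DESeq2 1.42.0, other scalings and filters, the replicate block and leaving out libraries. The replicate numbers did not pair the samples. The members and lists were chosen with earlier results of these data known. The named genes are the 10 members, the pathway genes described, and the 3 nearest profiles with at least 1000 normalized counts on average. The scripts were tested on simulated data. For -Dox against +Dox, they called 63 of 100 genes changed 4-fold and 100 of 100 changed 16-fold. A gene that was not called is therefore not shown to be unchanged. Depth is unknown for the peak lists.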

Additional observations from a re-analysis of the deposited data

How the results depend on the processing

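Over 450 refitted log2 fold changes of the members, 407 kept their call, 36 lost it, 4 gained it and 3 changed sign. Members changed after Dox withdrawal numbered 6 in all fits on other settings, of which those on only the iPax7 groups held no satellite cells. They numbered 2 to 6 when 1 +Dox or satellite library was left out, all lower. Leaving out a -Dox library leaves 1 in that group, and the results of those fits are given above. Against +Dox, satellite cells had 8 to 9 lower members, and against -Dox 3 to 6 without 1 library. Without -Dox replicate 2 these were 3 (Ccnd1, Ccnd2 and Ccnb1). Satellite cells against -Dox gave Ccne2 log2 fold changes from -0.31 to 0.16 and Ccna2 from -1.28 to 0.19 when 1 library was left out. The values above 0 were 0.16 and 0.19 without -Dox replicate 1, and 0.06 for Ccne2 without satellite replicate 1. The cause was not tested. The pathway list had 7 to 17 changed genes after Dox withdrawal (5 to 15 lower) and 16 to 26 in satellite cells against -Dox (6 to 11 higher) when 1 library was left out. With the replicate block it had 24 after Dox withdrawal, 22 of them lower. The replicate block kept the 6 members after Dox withdrawal. With it, Ccnd3 was at a log2 fold change of 0.85 (adjusted p = 0.00216 from edgeR), short of the 2-fold minimum. As -Dox has no replicate 3, the block gives +Dox replicate 3 no part in that contrast. The block fit also held no satellite cells. Without +Dox replicate 3 in the main fit, Ccnd3 was likewise at 0.85 (adjusted p = 0.388 from edgeR). Same-numbered libraries did not deviate together, with correlations from -0.0398 to 0.0272. The D type minus E, A and B type difference in +Dox was 1.49 on plain counts, and by summed levels it was -0.40 in +Dox, 3.32 in -Dox and 2.64 in satellite cells. Scaling by total counts moved the median of all genes by -0.21 after Dox withdrawal and by -0.37 and -0.17 in satellite cells against +Dox and -Dox. Ccna2 in satellite cells rests on 3 to 40 reads a library.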

Other observations

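In C2C12 cells, an established mouse myoblast line, the ATAC peak lists held a start site peak for 8 of the 10 members in myoblasts and 9 in myotubes, against 45.8% and 55% of all genes. Ccnd1 had none in either and Ccnd2 none in myoblasts. In the Flag control and Pax7-Flag lines of C2C12 all 10 had one, against 56.6% and 57.6% of all genes. Relative to the median promoter peak, Ccna2 was highest of the members in all 4 lists, from 2.82 in myoblasts to 4.95 in myotubes. H3K27me3 covered 93.5% of the bases near the Ccnd2 start site in the Flag control and 100% in the Pax7-Flag line, and the mark lay at 19.8% and 22.3% of all genes. Each list is 1 merged set, with no replicate check.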
